A study of Mus musculus with 11 samples.

Results

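The respiratory chain and ATP synthase genes examined here were the nuclear genes of oxidative phosphorylation, taken as every probe whose accession carries a RefSeq mouse symbol that begins with Ndufa, Ndufb, Ndufc, Ndufs, Ndufv, Uqcr, Cox4i, Cox5, Cox6, Cox7, Cox8 or Atp5, or that is Sdha, Sdhb, Sdhc, Sdhd or Cyc1. This rule gave 94 genes on 125 probes, of 20145 genes with a symbol on the array, and it used no measured value. By complex, 36 genes belonged to complex I, 4 to complex II, 9 to complex III, 20 to complex IV and 17 to complex V, and the remaining 8 (Ndufaf1 to Ndufaf8) encode assembly factors of complex I. Ndufa4 and its relative Ndufa4l2 were placed with complex IV, where Ndufa4 resides, together with the supercomplex factor Cox7a2l. Of the 94 genes, 92 were well above background on at least 3 arrays and were tested. The other two, the tissue-restricted Cox7b2 and Cox8c, were well above background on 0 arrays.

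Liver RNA of 11 male mice of a hybrid strain, largely B6SJL with some 129S6, was measured on 1-colour Agilent arrays. Of the mice, 4 were labelled β-catΔEx3:Myc, 3 were labelled β-catΔEx3 and 4 were wild type (WT), all 22 to 40 days old, with an exact age given only for β-catΔEx3:Myc replicate 4 (29 days), β-catΔEx3 replicate 3 (30 days) and WT replicate 4 (31 days). The mutant form of β-catenin, the carrier of the Wnt signal, lacks the part encoded by exon 3 and so escapes the phosphorylation that marks the protein for degradation. Myc, a transcription factor, promotes cell growth. Both changes serve as a model of hepatoblastoma, a liver tumour of young children. The series text counts the last 4 livers as expressing c-Myc and names both changes in its title, so that they carry both rests on their label. The labels used here name no promoter or Cre line and no pooling, and the text describes the livers as bearing tumours without saying whether tumour or neighbouring tissue was taken. The labels do not say more about how far the animals of a group are related, so the tests measure the spread between these 11 livers.

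Complexes I to IV of the inner mitochondrial membrane pass electrons from NADH and succinate to oxygen, and complexes I, III and IV pump protons as they do so. Complex V, the ATP synthase, lets the protons flow back and makes ATP. Most subunits are encoded in the nucleus and imported, while a set of core subunits is encoded by mitochondrial DNA and is not among the genes examined. The liver is rich in mitochondria and uses this pathway to pay for gluconeogenesis, the urea cycle and bile production.

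A level is given as the log2 processed signal minus the 75th percentile of the same array, and levels are compared only between arrays and not between genes. The arrays lay on 4 slides, and slide is tied to genotype. Replicates 1 and 2 of each mutant group shared slide 2, β-catΔEx3:Myc replicate 3 was on slide 3, the WT replicates 1 to 3 were on slide 1, and slide 4 carried 1 array of each group. The 75th percentile of the signal ranged from 227 to 354.3 across arrays, and no spot was saturated. The skeletal muscle markers Tnni2, Acta1, Myh1 and Tnnt3 were far higher on β-catΔEx3:Myc replicate 4 than on any other array. The heart markers Myh6, Tnnt2 and Nppa were not well above background on it. The values of Cox6a2, the count of genes called higher and the complex IV median are therefore also given without this array.

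Genes of all 5 complexes were higher in both mutant groups than in WT livers. The median of the 92 genes, as a log2 difference from the WT mean, was 0.59, 0.79, 0.66 and 0.53 on the β-catΔEx3:Myc arrays, 0.70, 0.60 and 0.47 on the β-catΔEx3 arrays, and 0.11, -0.11, -0.07 and 0.08 on the WT arrays. Every mutant array thus lay above every WT array, and the mutant groups overlapped each other. In β-catΔEx3:Myc livers 74 of 92 genes were called higher (adjusted p under 0.05, limma) and 1 lower, where 25.3% of all 22283 items tested were called higher and 17.1% lower. In β-catΔEx3 livers 62 genes were called higher and 2 lower, where 21.6% of all items were called higher and 15.5% lower. The median log2 fold change of the genes was 0.64 in β-catΔEx3:Myc livers and 0.60 in β-catΔEx3 livers, against 0.14 and 0.10 over all items in the same comparisons. The genes are bright: 80 of the 92 lay in the highest quintile of all items by signal, whose own medians were 0.33 in β-catΔEx3:Myc livers and 0.34 in β-catΔEx3 livers. The levels of the mutant and WT arrays did not overlap for 76 genes in β-catΔEx3:Myc livers and 69 in β-catΔEx3 livers, 82.6% and 75% of the genes, where 42.4% and 43.7% of all items did not overlap. In the highest quintile by signal 57.1% and 55.4% did not overlap. Without β-catΔEx3:Myc replicate 4, 71 genes were called higher in β-catΔEx3:Myc livers.

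**Figure D1:**
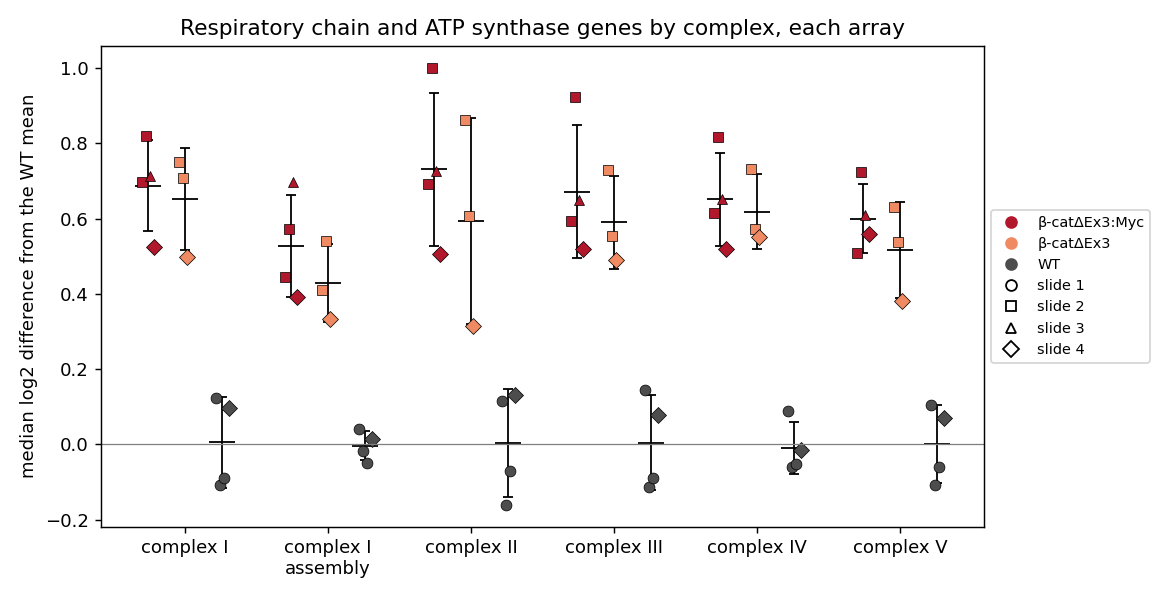
Median log2 difference from the WT mean over the genes of each complex, for each array (symbols, shape by slide), with the group mean and SD as bars, groups from left to right β-catΔEx3:Myc (n = 4), β-catΔEx3 (n = 3) and WT (n = 4). In every complex all mutant arrays lie above all WT arrays, and the mutant arrays of slide 4 are the lowest of their group, except for β-catΔEx3:Myc replicate 4 in complex V.

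The size of these rises depended on whether slide was in the fit. A difference between slides and one between the livers on them cannot be told apart. With slide as a block, which rests each comparison with WT on WT replicate 4, the median log2 fold change was 0.44 in β-catΔEx3:Myc livers and 0.36 in β-catΔEx3 livers, and 83 of 92 genes stayed above 0 in each. The fold change was smaller with the block for 83 of the 92 genes in β-catΔEx3:Myc livers and 86 in β-catΔEx3 livers. Only 2 genes were called higher in β-catΔEx3:Myc livers (Cox6b1 and Cox6a2) and 1 in β-catΔEx3 livers (Cox6b1), and 0 were called lower. Of all items 4.31% were then called higher and 4.46% lower in β-catΔEx3:Myc livers, and 4.16% higher and 3.98% lower in β-catΔEx3 livers. In the same fit the median over the highest quintile by signal was 0.16 in β-catΔEx3:Myc livers and 0.17 in β-catΔEx3 livers. Within slide 4 alone, a single array of each group, the median differences from WT were 0.45 in β-catΔEx3:Myc livers and 0.38 in β-catΔEx3 livers, against 0.01 and 0.03 over all items. The scaling of the arrays mattered as well. Over 4 other scalings (quantile normalization, the authors' deposited matrix, normexp background correction and the 75th percentile of the probes that every array detected), 43 of the 75 calls in β-catΔEx3:Myc livers and 34 of the 64 in β-catΔEx3 livers held in all 4. The sign held in all 4 for 73 of the 75, the exceptions being Atp5e and Uqcr11, and for 64 of the 64. The WT array of slide 4 lay 0.10 above the mean of the WT arrays of slide 1 in the median of the genes.

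**Figure D2:**
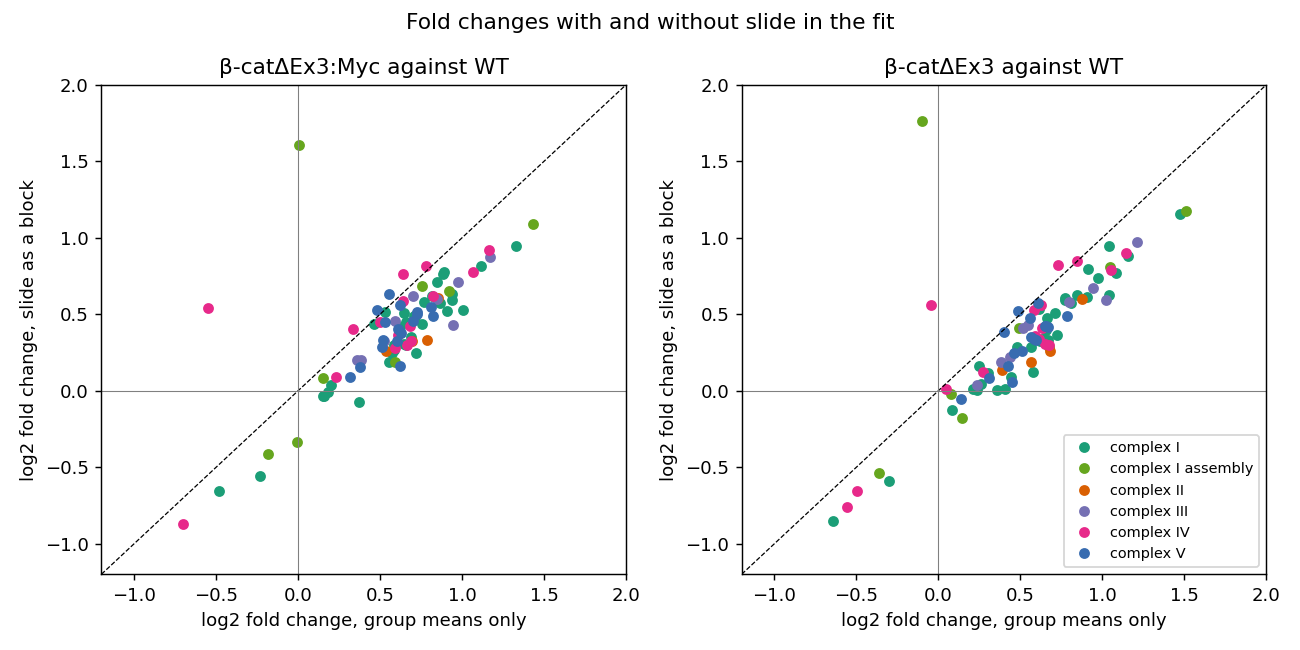
Log2 fold change against WT for most of the tested genes, 1 point each, in the fit of group means (x axis) and in the fit with slide as a block (y axis), left β-catΔEx3:Myc and right β-catΔEx3, coloured by complex, with equality as a dashed line. Cox6a2 and Cox8b are among those not drawn. Most points lie above 0 on both axes and below the dashed line, with medians of 0.64 without and 0.44 with the block in β-catΔEx3:Myc livers, and of 0.60 and 0.36 in β-catΔEx3 livers.

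**Figure D3:**
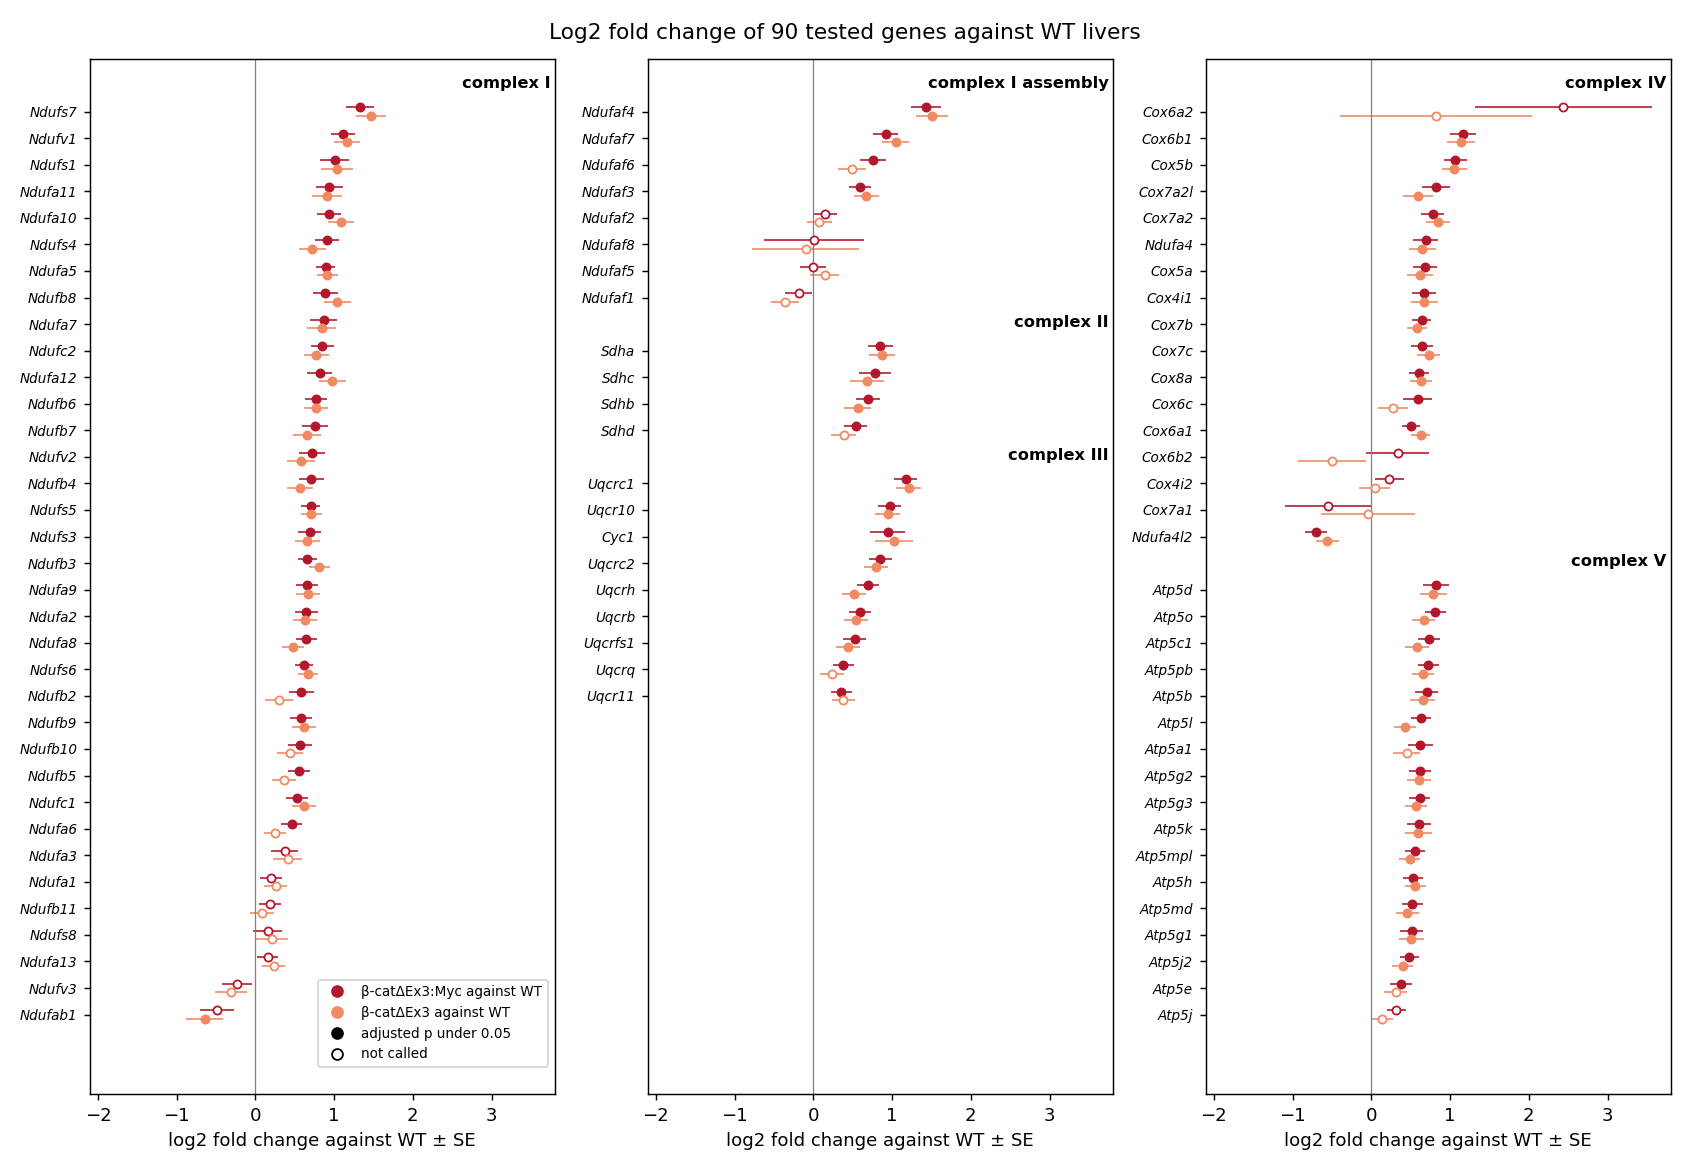
Log2 fold change against WT with its standard error for 90 of the tested genes, by complex, β-catΔEx3:Myc above β-catΔEx3 in each row, filled where the adjusted p was under 0.05. Nearly all points lie right of 0, and Ndufab1, Ndufv3, Ndufaf1, Ndufa4l2 and Cox7a1 lie left of it in both comparisons.

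The sequence around the transcription start was read from the RefSeq promoter windows (GRCm38.p6, 300 bases, ending downstream of the start), which held 75 of the 94 genes. Shown are genes of complex I, its assembly and complex III with the largest called rises, and the complex IV gene that kept its call with slide as a block. Ndufab1, which fell in β-catΔEx3 livers, is also shown. Capitals mark matches, on either strand, to the 10-base palindrome bound by Nrf1, a regulator of nuclear genes for mitochondria, to AAGATGGCG (YY1) or CCAAT (NF-Y).
Ndufaf4, chr4:24897833-24898132, plus strand: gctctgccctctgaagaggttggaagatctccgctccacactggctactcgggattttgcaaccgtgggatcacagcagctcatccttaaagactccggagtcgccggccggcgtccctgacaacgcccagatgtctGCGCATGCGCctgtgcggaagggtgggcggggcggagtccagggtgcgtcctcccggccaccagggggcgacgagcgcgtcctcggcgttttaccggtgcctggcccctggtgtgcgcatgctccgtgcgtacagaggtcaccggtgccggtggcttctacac
Uqcrc1, chr9:108936398-108936697, plus strand: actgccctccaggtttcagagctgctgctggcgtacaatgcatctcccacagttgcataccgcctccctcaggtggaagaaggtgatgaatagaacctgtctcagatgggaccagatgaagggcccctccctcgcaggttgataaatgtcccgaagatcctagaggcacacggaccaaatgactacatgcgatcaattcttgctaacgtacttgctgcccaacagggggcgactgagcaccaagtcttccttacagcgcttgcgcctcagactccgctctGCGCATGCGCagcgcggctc
Ndufs7, chr10:80249199-80249498, plus strand: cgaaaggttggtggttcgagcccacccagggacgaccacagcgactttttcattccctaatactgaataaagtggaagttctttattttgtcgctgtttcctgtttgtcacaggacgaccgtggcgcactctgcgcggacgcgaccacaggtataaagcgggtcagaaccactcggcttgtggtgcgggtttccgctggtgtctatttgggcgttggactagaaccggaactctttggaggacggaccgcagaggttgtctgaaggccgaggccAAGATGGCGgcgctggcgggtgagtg
Cox6b1, chr7:30626065-30626364, minus strand: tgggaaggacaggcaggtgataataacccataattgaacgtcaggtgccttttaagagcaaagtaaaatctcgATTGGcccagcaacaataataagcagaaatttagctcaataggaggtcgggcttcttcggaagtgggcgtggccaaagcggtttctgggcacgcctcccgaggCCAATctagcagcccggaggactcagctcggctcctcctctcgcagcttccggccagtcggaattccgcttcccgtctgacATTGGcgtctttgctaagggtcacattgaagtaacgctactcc
Ndufab1, chr7:122101799-122102098, minus strand: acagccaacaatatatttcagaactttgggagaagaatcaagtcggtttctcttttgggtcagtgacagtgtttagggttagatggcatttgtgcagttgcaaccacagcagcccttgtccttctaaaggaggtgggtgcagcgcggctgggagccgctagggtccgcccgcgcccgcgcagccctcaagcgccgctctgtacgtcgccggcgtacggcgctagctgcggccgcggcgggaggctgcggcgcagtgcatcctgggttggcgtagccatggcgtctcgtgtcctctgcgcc

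The Nrf1 palindrome was found in the windows of 7 of the 75 genes (9.33%), Atp5g2, Atp5k, Cox6a1, Ndufa11, Ndufaf4, Ndufaf5 and Uqcrc1, against 1.07% of all 27025 genes with a window and 1.47% of the protein-coding ones. Of these, Ndufaf5 was called in neither comparison with WT. AAGATGGCG was in 8 of the 75, Atp5j, Atp5j2, Ndufa9, Ndufaf8, Ndufc1, Ndufs4, Ndufs6 and Ndufs7, against 1.64% of all genes. The shorter motifs were near their share among all genes, with CACGTG, the E-box to which Myc binds, in 6 genes (8.0% against 8.09%) and CCAAT in 33 (44.0% against 41.1%). CCGGAAGT, an Ets motif, was in 5 (6.67% against 4.31%) and TCAAGGTCA, the motif of estrogen-related receptors, in 2 (2.67% against 0.466%). These letters were looked for on both strands as written, with no mismatch, no match of one motif overlapped another in the windows printed above, and a match shows no binding. None of the motifs was in the windows of Cox5b, Cox7a2, Ndufa12, Ndufaf7, Atp5d or Atp5o, which were called higher in both comparisons with WT. CCAAT was in those of Ndufa13, Ndufs8 and Cox7a1, which were called in neither. Whether a motif goes with the rise was not tested.

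Complex I takes electrons from NADH, and its Ndufs7 had the largest rise called among all subunit genes. In β-catΔEx3:Myc livers 29 of its 36 subunit genes were called higher and 0 lower, with a median log2 fold change of 0.66. In β-catΔEx3 livers 24 were higher and 1 lower, with a median of 0.64. The core subunits, which hold the redox centres, had 6 and 5 of 7 called higher in the same order, with medians of 0.72 and 0.66. Among the accessory subunits, which surround the core, 23 and 19 of 29 were called higher, with medians of 0.65 and 0.63.

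Ndufs7 encodes the core subunit whose iron-sulfur cluster hands electrons to ubiquinone. Its level was 8.03, 8.02, 8.09 and 7.45 on the β-catΔEx3:Myc arrays, 8.23, 7.89 and 7.99 on the β-catΔEx3 arrays and 6.78, 6.36, 6.45 and 6.67 on the WT arrays. All mutant arrays lay above all WT arrays, with β-catΔEx3:Myc replicate 4 the lowest of the mutant arrays. The log2 fold change against WT was 1.33 ± 0.18 (adjusted p = 0.000292) in β-catΔEx3:Myc livers and 1.47 ± 0.19 (adjusted p = 0.000372) in β-catΔEx3 livers, or 2.51-fold and 2.77-fold. With slide as a block these were 0.95 (adjusted p = 0.0942) and 1.15 (adjusted p = 0.0602). Ndufv1 encodes the flavoprotein at which NADH gives up its electrons. Its level was 7.83, 8.17, 8.01 and 7.71 on the β-catΔEx3:Myc arrays, 8.14, 7.89 and 7.89 on the β-catΔEx3 arrays and 6.98, 6.63, 6.69 and 6.95 on the WT arrays, again without overlap between mutant and WT arrays. Against WT, Ndufv1 thus differed by 1.12 ± 0.15 (adjusted p = 0.000319) in β-catΔEx3:Myc livers and 1.16 ± 0.16 (adjusted p = 0.000574) in β-catΔEx3 livers on the log2 scale.

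Ndufs1, another iron-sulfur core subunit, rose by 1.01 ± 0.19 in β-catΔEx3:Myc livers and 1.04 ± 0.20 in β-catΔEx3 livers on the log2 scale. Ndufa10 and Ndufb8, both accessory subunits, rose by 0.94 ± 0.15 and 0.89 ± 0.16 in β-catΔEx3:Myc livers and by 1.09 ± 0.16 and 1.04 ± 0.17 in β-catΔEx3 livers. The core subunit Ndufs8 was among the genes not called, at 0.16 ± 0.19 (adjusted p = 0.538) in β-catΔEx3:Myc livers and 0.21 ± 0.20 (adjusted p = 0.449) in β-catΔEx3 livers. Ndufa1, Ndufa3, Ndufa13, Ndufb11 and Ndufv3 were not called in either comparison. The probes of Ndufb11 and of Ndufv3 disagreed: the 2 probes of Ndufv3 gave log2 fold changes of -0.23 and 0.75 in β-catΔEx3:Myc livers, and those of Ndufb11 gave -0.68 and 0.18. Of the 23 genes with several probes that passed the filter, the other 21 had probes of 1 sign in both comparisons with WT.

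Ndufab1, the mitochondrial acyl carrier protein, which also serves mitochondrial fatty acid synthesis, was the only complex I subunit gene called lower. Its level was 2.30, 1.92, 1.77 and 1.57 on the β-catΔEx3:Myc arrays, 2.08, 1.73 and 1.38 on the β-catΔEx3 arrays and 2.74, 2.36, 2.18 and 2.22 on the WT arrays. β-catΔEx3:Myc replicate 1 lay above the WT replicates 3 and 4, while all 3 β-catΔEx3 arrays lay below all WT arrays. On the log2 scale the difference from WT came to -0.48 ± 0.21 (adjusted p = 0.0915) in β-catΔEx3:Myc livers and -0.64 ± 0.23 (adjusted p = 0.0487) in β-catΔEx3 livers. The call in β-catΔEx3 livers sat at the threshold and was lost without β-catΔEx3:Myc replicates 2 or 3 or β-catΔEx3 replicates 2 or 3 or WT replicates 1, 2, 3 or 4 (adjusted p up to 0.172, log2 fold change -0.82 to -0.47 over all arrays left out in turn).

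Assembly factors build complex I without staying in it, and they were divided. Of the 8 Ndufaf genes, 4 were called higher in β-catΔEx3:Myc livers (Ndufaf3, Ndufaf4, Ndufaf6 and Ndufaf7) and 3 in β-catΔEx3 livers (the same without Ndufaf6), and 0 were lower. Ndufaf4, a factor of an early assembly step, had a level of 4.84, 5.06, 4.82 and 4.52 on the β-catΔEx3:Myc arrays, 5.36, 4.72 and 4.59 on the β-catΔEx3 arrays and 3.40, 3.21, 3.48 and 3.42 on the WT arrays. Its lowest mutant array, β-catΔEx3:Myc replicate 4, lay 1.04 log2 units above its highest WT array. In limma the log2 fold change of Ndufaf4 against WT was 1.43 ± 0.19 (adjusted p = 0.000271) in β-catΔEx3:Myc livers and 1.51 ± 0.20 (adjusted p = 0.000454) in β-catΔEx3 livers, the largest rise called in either comparison among the 92 genes. A second Ndufaf4 probe gave 0.61 and 0.62 in the same comparisons, so the size of the rise differs between probes. Ndufaf7, a methyltransferase, had a level of 3.95, 3.65, 3.82 and 3.51 on the β-catΔEx3:Myc arrays, 3.91, 4.12 and 3.54 on the β-catΔEx3 arrays and 2.95, 2.74, 2.76 and 2.79 on the WT arrays. The log2 fold change against WT was 0.92 ± 0.16 (adjusted p = 0.00125) in β-catΔEx3:Myc livers and 1.05 ± 0.17 (adjusted p = 0.00122) in β-catΔEx3 livers. Ndufaf1, Ndufaf2, Ndufaf5 and Ndufaf8 were not called, with log2 fold changes of -0.18, 0.15, 0.00 and 0.01 in β-catΔEx3:Myc livers and -0.36, 0.08, 0.14 and -0.10 in β-catΔEx3 livers.

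**Figure D4:**
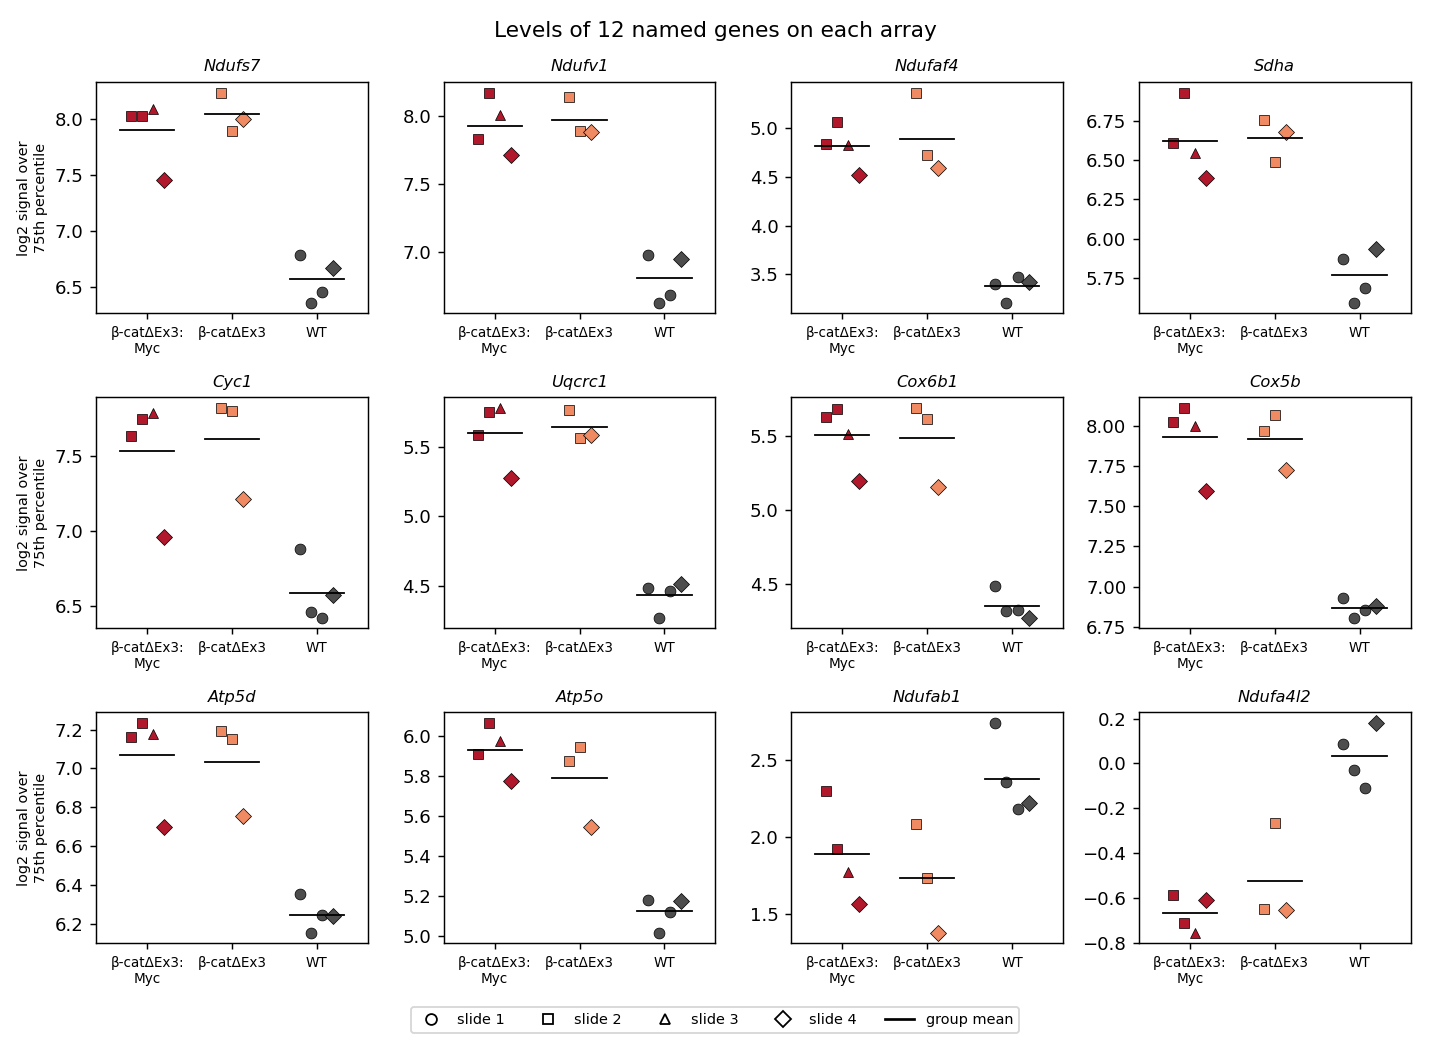
Level of 12 named genes on each array, as log2 signal over the 75th percentile of the array, by group (β-catΔEx3:Myc, β-catΔEx3, WT from left to right), with symbols by slide and a line at the group mean. In the first 10 panels all mutant arrays lie above all WT arrays. In the panel of Ndufa4l2 they lie below them, and in that of Ndufab1 the β-catΔEx3:Myc arrays overlap the WT arrays while the β-catΔEx3 arrays lie below them.

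Complex II, succinate dehydrogenase, is also an enzyme of the citric acid cycle. All 4 of its genes were called higher in β-catΔEx3:Myc livers (median log2 fold change 0.74), and 3 of 4 in β-catΔEx3 livers (median 0.62). Sdha, the flavoprotein that oxidises succinate, had a level of 6.61, 6.93, 6.55 and 6.39 on the β-catΔEx3:Myc arrays, 6.76, 6.49 and 6.68 on the β-catΔEx3 arrays and 5.87, 5.59, 5.68 and 5.93 on the WT arrays. Against WT, Sdha thus differed by 0.85 ± 0.15 (adjusted p = 0.00151) in β-catΔEx3:Myc livers and 0.88 ± 0.17 (adjusted p = 0.00254) in β-catΔEx3 livers on the log2 scale. The iron-sulfur subunit Sdhb had a level of 8.20, 8.60, 8.33 and 8.29 on the β-catΔEx3:Myc arrays, 8.48, 8.16 and 8.04 on the β-catΔEx3 arrays and 7.61, 7.52, 7.61 and 7.91 on the WT arrays. On the log2 scale the difference from WT came to 0.69 ± 0.15 (adjusted p = 0.00478) in β-catΔEx3:Myc livers and 0.56 ± 0.17 (adjusted p = 0.0231) in β-catΔEx3 livers. The call in β-catΔEx3 livers was lost without β-catΔEx3 replicate 1 or WT replicates 1, 2 or 3 (adjusted p up to 0.1, log2 fold change 0.43 to 0.66 over all arrays left out in turn). Neither gene had a mutant array within the range of the WT arrays.

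The membrane anchors Sdhc and Sdhd bind ubiquinone. Sdhc had a level of 6.29, 6.44, 6.27 and 5.67 on the β-catΔEx3:Myc arrays, 6.28, 6.27 and 5.64 on the β-catΔEx3 arrays and 5.51, 5.29, 5.37 and 5.35 on the WT arrays. Its 2 slide 4 mutant arrays were the lowest mutant ones, though still above all WT arrays, and in limma the log2 fold change of Sdhc against WT was 0.79 ± 0.20 (adjusted p = 0.0105) in β-catΔEx3:Myc livers and 0.68 ± 0.22 (adjusted p = 0.0327) in β-catΔEx3 livers. The call in β-catΔEx3 livers was lost without β-catΔEx3 replicates 1 or 2 or WT replicates 2, 3 or 4 (adjusted p up to 0.119, log2 fold change 0.57 to 0.90 over all arrays left out in turn). For Sdhd the levels were 7.32, 7.41, 7.44 and 7.19 on the β-catΔEx3:Myc arrays, 7.43, 7.13 and 7.01 on the β-catΔEx3 arrays and 7.02, 6.61, 6.68 and 6.90 on the WT arrays. β-catΔEx3 replicate 3 lay just below WT replicate 1, so these groups overlapped. The log2 fold change against WT was 0.54 ± 0.15 (adjusted p = 0.0141) in β-catΔEx3:Myc livers and 0.39 ± 0.16 (adjusted p = 0.0818) in β-catΔEx3 livers, so that it was called in β-catΔEx3:Myc livers only, and the mutant groups were not called different from each other (0.15 ± 0.16, adjusted p = 0.833). With slide as a block the complex II median was 0.33 in β-catΔEx3:Myc livers and 0.22 in β-catΔEx3 livers.

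Complex III moves electrons from ubiquinol to cytochrome c. All 9 genes were called higher in β-catΔEx3:Myc livers (median 0.70) and 7 in β-catΔEx3 livers (median 0.55), Uqcr11 and Uqcrq being the ones not called there. Cyc1, the haem protein that passes electrons to cytochrome c, had a level of 7.63, 7.74, 7.78 and 6.96 on the β-catΔEx3:Myc arrays, 7.82, 7.79 and 7.21 on the β-catΔEx3 arrays and 6.88, 6.46, 6.42 and 6.57 on the WT arrays. On slide 4 the mutant arrays stood at 6.96 and 7.21, near WT replicate 1 at 6.88, and the other mutant arrays were higher. Against WT, Cyc1 thus differed by 0.94 ± 0.22 (adjusted p = 0.00622) in β-catΔEx3:Myc livers and 1.02 ± 0.24 (adjusted p = 0.00757) in β-catΔEx3 livers on the log2 scale. Uqcrfs1, the Rieske iron-sulfur protein and the other redox subunit, rose by 0.52 ± 0.14 and 0.44 ± 0.15 in the same order.

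Uqcrc1, a core protein on the matrix side, rose the most in this complex. Its level was 5.59, 5.76, 5.78 and 5.28 on the β-catΔEx3:Myc arrays, 5.77, 5.57 and 5.59 on the β-catΔEx3 arrays and 4.48, 4.27, 4.46 and 4.51 on the WT arrays. The lowest mutant array, β-catΔEx3:Myc replicate 4, was 0.77 above the highest WT array. On the log2 scale the difference from WT came to 1.17 ± 0.15 (adjusted p = 0.000197) in β-catΔEx3:Myc livers and 1.21 ± 0.16 (adjusted p = 0.000364) in β-catΔEx3 livers, or 2.25-fold and 2.32-fold. The small subunit Uqcr10 had a level of 8.07, 8.33, 8.07 and 8.0 on the β-catΔEx3:Myc arrays, 8.22, 8.04 and 8.01 on the β-catΔEx3 arrays and 7.33, 7.06, 6.88 and 7.31 on the WT arrays, without overlap. In limma the log2 fold change of Uqcr10 against WT was 0.97 ± 0.15 (adjusted p = 0.000562) in β-catΔEx3:Myc livers and 0.95 ± 0.16 (adjusted p = 0.00132) in β-catΔEx3 livers, and its 3 probes gave 0.91 to 0.97 in β-catΔEx3:Myc livers and 0.91 to 0.95 in β-catΔEx3 livers.

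Complex IV, cytochrome c oxidase, gives the electrons to oxygen, and several of its subunits exist as a broadly expressed form and a form of muscle, lung or other tissues. The 11 tested genes outside the tissue-restricted forms and relatives were all called higher in β-catΔEx3:Myc livers (median 0.67), and 10 of them in β-catΔEx3 livers (median 0.65), where Cox6c was not. Cox6b1, a subunit on the side where cytochrome c docks, had a level of 5.63, 5.69, 5.51 and 5.20 on the β-catΔEx3:Myc arrays, 5.69, 5.61 and 5.16 on the β-catΔEx3 arrays and 4.48, 4.31, 4.32 and 4.27 on the WT arrays. The lowest mutant array, β-catΔEx3 replicate 3, was 0.67 above the highest WT array. The log2 fold change against WT was 1.16 ± 0.16 (adjusted p = 0.000388) in β-catΔEx3:Myc livers and 1.14 ± 0.18 (adjusted p = 0.000868) in β-catΔEx3 livers, or 2.24-fold and 2.21-fold. It was the only gene of the 92 that was called higher in both comparisons with slide as a block, at 0.92 (adjusted p = 0.0375) and 0.90 (adjusted p = 0.041).

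Cox5b, a zinc-binding subunit on the matrix side, had a level of 8.03, 8.11, 8.0 and 7.59 on the β-catΔEx3:Myc arrays, 7.97, 8.07 and 7.73 on the β-catΔEx3 arrays and 6.93, 6.81, 6.85 and 6.88 on the WT arrays, and the WT arrays lay close together below all mutant arrays. Against WT, Cox5b thus differed by 1.07 ± 0.15 (adjusted p = 0.000339) in β-catΔEx3:Myc livers and 1.06 ± 0.16 (adjusted p = 0.000763) in β-catΔEx3 livers on the log2 scale. Other broadly expressed isoforms were called higher in both groups as well. Cox4i1, which binds ATP, had a level of 9.05, 9.29, 9.03 and 8.76 on the β-catΔEx3:Myc arrays, 9.20, 9.12 and 8.79 on the β-catΔEx3 arrays and 8.49, 8.22, 8.28 and 8.48 on the WT arrays, and it rose by 0.67 ± 0.16 and 0.67 ± 0.17 on the log2 scale in β-catΔEx3:Myc and β-catΔEx3 livers.

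Further isoforms of complex IV with tissue-restricted partners were also higher in both mutant groups than in WT livers. Cox6a1 had a level of 10.18, 10.38, 10.20 and 10.20 on the β-catΔEx3:Myc arrays, 10.42, 10.39 and 10.28 on the β-catΔEx3 arrays and 9.84, 9.71, 9.66 and 9.74 on the WT arrays. Cox7a2 had a level of 7.22, 7.43, 7.08 and 7.04 on the β-catΔEx3:Myc arrays, 7.39, 7.09 and 7.31 on the β-catΔEx3 arrays and 6.65, 6.33, 6.33 and 6.34 on the WT arrays. For Cox8a it was 9.14, 9.41, 9.36 and 9.19 on the β-catΔEx3:Myc arrays, 9.36, 9.32 and 9.21 on the β-catΔEx3 arrays and 8.74, 8.52, 8.59 and 8.81 on the WT arrays. In each of these all mutant arrays were above all WT arrays. The log2 fold changes in β-catΔEx3:Myc and β-catΔEx3 livers were 0.50 ± 0.11 and 0.63 ± 0.12 for Cox6a1, 0.78 ± 0.14 and 0.85 ± 0.16 for Cox7a2, and 0.61 ± 0.13 and 0.63 ± 0.14 for Cox8a, all called. Ndufa4, first assigned to complex I and later found in complex IV, had a level of 7.45, 7.52, 7.44 and 7.05 on the β-catΔEx3:Myc arrays, 7.43, 7.23 and 7.31 on the β-catΔEx3 arrays and 6.89, 6.54, 6.41 and 6.86 on the WT arrays. On the log2 scale the difference from WT came to 0.69 ± 0.16 (adjusted p = 0.0061) in β-catΔEx3:Myc livers and 0.65 ± 0.17 (adjusted p = 0.0149) in β-catΔEx3 livers, and the call in β-catΔEx3 livers was lost without β-catΔEx3 replicate 1 (adjusted p up to 0.0573, log2 fold change 0.56 to 0.72 over all arrays left out in turn). Cox7a2l, which joins complexes III and IV into supercomplexes, had a level of 7.24, 7.84, 7.38 and 7.43 on the β-catΔEx3:Myc arrays, 7.47, 6.92 and 7.33 on the β-catΔEx3 arrays and 6.64, 6.47, 6.59 and 6.89 on the WT arrays. In limma the log2 fold change of Cox7a2l against WT was 0.83 ± 0.18 (adjusted p = 0.00425) in β-catΔEx3:Myc livers and 0.59 ± 0.19 (adjusted p = 0.0351) in β-catΔEx3 livers, and the call in β-catΔEx3 livers was lost without β-catΔEx3 replicates 1 or 3 or WT replicates 1, 2 or 3 (adjusted p up to 0.133, log2 fold change 0.48 to 0.75 over all arrays left out in turn).

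The tissue-restricted forms were mostly not called. Of the 7 tested genes of that class, relatives included, Cox7a2l was higher and Ndufa4l2 lower in each comparison with WT, and the other 5 were called in neither. Ndufa4l2, a relative of Ndufa4 that hypoxia induces, had a level of -0.59, -0.71, -0.76 and -0.61 on the β-catΔEx3:Myc arrays, -0.65, -0.27 and -0.66 on the β-catΔEx3 arrays and 0.09, -0.03, -0.11 and 0.18 on the WT arrays. All mutant arrays lay below all WT arrays. The log2 fold change against WT was -0.70 ± 0.14 (adjusted p = 0.00232) in β-catΔEx3:Myc livers and -0.56 ± 0.15 (adjusted p = 0.0135) in β-catΔEx3 livers, and -0.87 (adjusted p = 0.0744) and -0.76 (adjusted p = 0.104) with slide as a block. The call in β-catΔEx3 livers was lost without β-catΔEx3 replicate 1 (adjusted p up to 0.0567, log2 fold change -0.69 to -0.49 over all arrays left out in turn). Cox4i2, the lung form, had a level of -1.46, -1.37, -1.06 and -1.67 on the β-catΔEx3:Myc arrays, -1.61, -1.28 and -1.83 on the β-catΔEx3 arrays and -1.74, -1.61, -1.33 and -1.80 on the WT arrays, with all groups overlapping. Against WT, Cox4i2 thus differed by 0.23 ± 0.18 (adjusted p = 0.338) in β-catΔEx3:Myc livers and 0.04 ± 0.20 (adjusted p = 0.88) in β-catΔEx3 livers on the log2 scale. Cox6b2, the testis form, had a level of 0.95, -0.91, -0.90 and 0.04 on the β-catΔEx3:Myc arrays, -1.12, -0.47 and -1.53 on the β-catΔEx3 arrays and -0.20, -0.74, -0.60 and -0.62 on the WT arrays. β-catΔEx3:Myc replicate 1 was the highest and β-catΔEx3 replicate 3 the lowest of these arrays, and the log2 fold change was 0.33 ± 0.40 (adjusted p = 0.532) in β-catΔEx3:Myc livers and -0.50 ± 0.43 (adjusted p = 0.395) in β-catΔEx3 livers.

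Cox6a2 and Cox8b were high on a single array. Cox6a2, the form of heart and skeletal muscle, had a level of -1.59, -1.29, -1.55 and 3.90 on the β-catΔEx3:Myc arrays, -1.93, -2.69 and -0.63 on the β-catΔEx3 arrays and -3.07, -1.44, -2.25 and -3.52 on the WT arrays. β-catΔEx3:Myc replicate 4 stood more than 4 log2 units above every other array, the next being β-catΔEx3 replicate 3. The fitted log2 fold change was 2.44 ± 1.13 (adjusted p = 0.106) in β-catΔEx3:Myc livers. It was 1.09 without β-catΔEx3:Myc replicate 4 and was not called then either (adjusted p = 0.14). Blocking on slide gave 6.21 (adjusted p = 0.0277), a value that draws on slide 4, the only slide with WT and mutant arrays. Cox8b, the other muscle form, had a level of -5.27, -6.74, -5.37 and 2.63 on the β-catΔEx3:Myc arrays, -4.16, -5.48 and -4.22 on the β-catΔEx3 arrays and -5.20, -5.14, -4.46 and -5.77 on the WT arrays. It passed the filter through 3 mutant arrays, 1 of β-catΔEx3:Myc and 2 of β-catΔEx3, and was well above background on none of the 4 WT arrays. It was not called in β-catΔEx3:Myc livers (adjusted p = 0.508), and without β-catΔEx3:Myc replicate 4 none of the remaining β-catΔEx3:Myc arrays was well above background either, so no fold is given. Cox7a1, also of muscle, had a level of 1.47, 2.63, 0.24 and 2.48 on the β-catΔEx3:Myc arrays, 1.53, 3.30 and 1.80 on the β-catΔEx3 arrays and 2.37, 2.27, 2.80 and 1.59 on the WT arrays, and its groups overlapped.

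Several skeletal muscle markers stood high on the same array. Of the 13 skeletal and heart muscle markers listed, 7 were well above background on β-catΔEx3:Myc replicate 4. On the other β-catΔEx3:Myc arrays 3 to 4 were, on the β-catΔEx3 arrays 2 to 4 and on the WT arrays 1 to 2. The heart markers Myh6, Tnnt2 and Nppa were not well above background on β-catΔEx3:Myc replicate 4, at -5.44, -5.37 and -4.98. Neither were Myh4, Mylpf and Casq1. The summed signal of all 13, relative to the 75th percentile, was 85.6 on β-catΔEx3:Myc replicate 4, 0.485 to 1.42 on the other β-catΔEx3:Myc arrays, 0.418 to 0.813 on the β-catΔEx3 arrays and 0.496 to 0.672 on the WT arrays. Tnni2, a troponin of fast muscle, had a level of 5.33 on β-catΔEx3:Myc replicate 4 and of -3.07 to -1.38 on the other 10 arrays. The part of muscle RNA in the values of Cox6a2 and Cox8b was not tested. Without that array the median log2 fold change of complex IV in β-catΔEx3:Myc livers was 0.68.

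**Figure D5:**
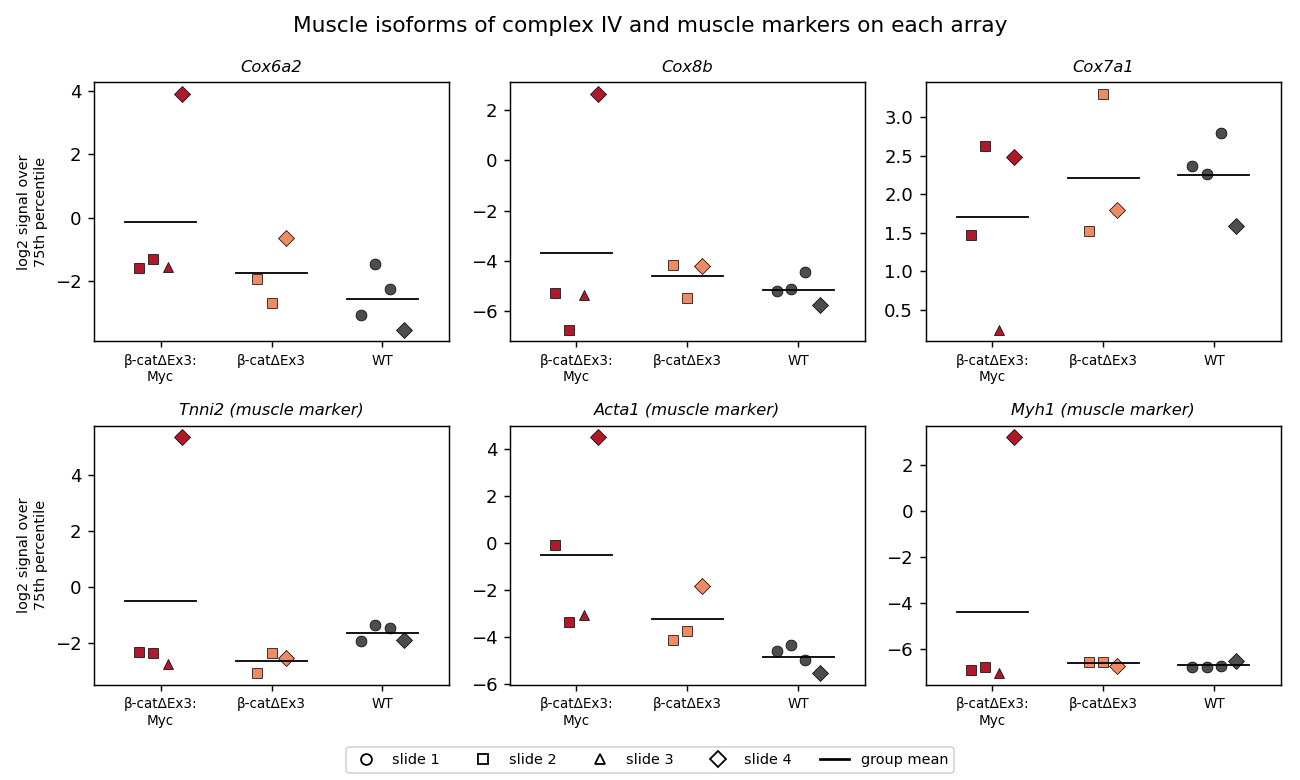
Level of the muscle isoforms Cox6a2, Cox8b and Cox7a1 (top) and of the muscle markers Tnni2, Acta1 and Myh1 (bottom) on each array, as log2 signal over the 75th percentile, by group with symbols by slide and a line at the group mean. In all panels but that of Cox7a1, β-catΔEx3:Myc replicate 4 lies above every other array.

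Complex V, the ATP synthase, takes the energy of the proton gradient, and its genes rose in both mutant groups. In β-catΔEx3:Myc livers 16 of its 17 genes were called higher (median 0.61, range 0.32 to 0.82), and in β-catΔEx3 livers 14 (median 0.56, range 0.14 to 0.79). Of the catalytic head and central stalk, 5 and 3 of 5 genes were called higher in the same order. All 3 genes of the proton-carrying c-ring (Atp5g1, Atp5g2 and Atp5g3) and all 5 of the smaller membrane subunits were called in both. Each of these membrane subunits kept its sign under the 4 other scalings of the arrays, but in β-catΔEx3 livers each was called in only 1 of them. Of the peripheral stalk 3 of 4 were called in both, and Atp5j was not, at 0.32 ± 0.12 (adjusted p = 0.0537) in β-catΔEx3:Myc livers and 0.14 ± 0.13 (adjusted p = 0.423) in β-catΔEx3 livers. Atp5b, the catalytic subunit, rose by 0.70 ± 0.14 and 0.65 ± 0.15 on the log2 scale in β-catΔEx3:Myc and β-catΔEx3 livers.

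Atp5d, a subunit of the rotating central stalk, had a level of 7.16, 7.24, 7.18 and 6.70 on the β-catΔEx3:Myc arrays, 7.19, 7.15 and 6.75 on the β-catΔEx3 arrays and 6.35, 6.15, 6.25 and 6.24 on the WT arrays. The slide 4 arrays were the lowest of each mutant group and still above all WT arrays. On the log2 scale the difference from WT came to 0.82 ± 0.16 (adjusted p = 0.00246) in β-catΔEx3:Myc livers and 0.79 ± 0.17 (adjusted p = 0.00573) in β-catΔEx3 livers. Atp5o, which ties the peripheral stalk to the head, had a level of 5.91, 6.07, 5.98 and 5.78 on the β-catΔEx3:Myc arrays, 5.88, 5.95 and 5.54 on the β-catΔEx3 arrays and 5.18, 5.01, 5.12 and 5.18 on the WT arrays, without overlap. In limma the log2 fold change of Atp5o against WT was 0.81 ± 0.13 (adjusted p = 0.000963) in β-catΔEx3:Myc livers and 0.67 ± 0.14 (adjusted p = 0.00516) in β-catΔEx3 livers. Dmac2l, listed with the complex V assembly genes and formerly known as the ATP synthase subunit s gene, rose by 2.30 ± 0.20 (adjusted p = 2.74e-05) and 2.27 ± 0.22 (adjusted p = 6.71e-05) in the same order, and this call remained with slide as a block, at 2.0 (adjusted p = 0.0268) and 2.06 (adjusted p = 0.0235).

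The comparison of β-catΔEx3:Myc with β-catΔEx3 livers sets the model with Myc against the one without it. Myc itself was not called between these groups by limma (1.87 ± 0.73 on the log2 scale, adjusted p = 0.395), although its levels did not overlap. Its lowest β-catΔEx3:Myc array stood at 2.31 and its highest β-catΔEx3 array at 2.21. The lack of a call in this test thus does not show that a gene is unchanged. In limma's test 0 of 92 genes were called in either direction (lowest adjusted p = 0.561), where 0.108% of all items were called higher and 0.144% lower, and 0 genes had an unadjusted p under 0.05, against 10.3% of all items. Blocking on slide also gave 0 called genes, where 0.516% of all items were higher and 0.283% lower. The median log2 fold change was 0.05 over the genes and 0.01 over all items, and the median of the genes was 0.03 within slide 2 and 0.04 within slide 4. By complex the medians were 0.00 for I, 0.12 for II, 0.05 for III, 0.03 for IV and 0.06 for V. For 77 of the 92 genes the difference was smaller than its standard error, whose median was 0.16, so small differences were not detectable with these arrays. The groups did not overlap for 1 gene, Atp5l, a membrane subunit of complex V (0.20 ± 0.14, adjusted p = 0.697, named after its value was seen), where 8.1% of all items did not overlap.

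The largest differences between the mutant groups lay in tissue-restricted genes. They were Cox6a2 (1.62 ± 1.22, adjusted p = 0.733, with the muscle markers high on β-catΔEx3:Myc replicate 4, and 0.27 without that array), Cox6b2 (0.83 ± 0.43, adjusted p = 0.561) and, in the other direction, Cox7a1 (-0.50 ± 0.60, adjusted p = 0.859). Cox8b was well above background on 1 of 4 β-catΔEx3:Myc arrays and 2 of 3 β-catΔEx3 arrays. After Cox7a1 the lowest difference was that of Ndufa12, an accessory subunit of complex I, with a level of 7.31, 7.40, 7.09 and 7.03 on the β-catΔEx3:Myc arrays, 7.71, 7.26 and 7.12 on the β-catΔEx3 arrays and 6.52, 6.30, 6.34 and 6.40 on the WT arrays. Its mutant groups overlapped and both lay above WT, and the difference between them was -0.16 ± 0.17 (adjusted p = 0.84). Against WT 62 genes were called higher in both mutant groups and 12 in β-catΔEx3:Myc livers only (among them Atp5a1, Cox6c, Ndufaf6, Sdhd, Uqcr11 and Uqcrq), and both comparisons share the WT arrays. For these 12 the direct test between the mutant groups made no call.

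Genes around the respiratory chain were examined with lists made for this purpose. The counts of these lists are to be read against the shares of all items. These were 25.3% called higher and 17.1% lower in β-catΔEx3:Myc livers, and 21.6% and 15.5% in β-catΔEx3 livers. Of the 17 citric acid cycle genes, 14 were called higher and 0 lower in β-catΔEx3:Myc livers (median 1.27), and 12 and 0 in β-catΔEx3 livers (median 1.36), and with slide as a block the medians were 0.89 and 0.85. Of 15 tested genes of the outer membrane, protein import and chaperones, 12 and 11 were higher (medians 0.82 and 0.88, and 0.71 and 0.82 with slide as a block), with Timm17a at 1.69 ± 0.21 and 1.61 ± 0.22. Of 12 tested genes of coenzyme Q synthesis, 8 were higher and 1 lower in β-catΔEx3:Myc livers and 6 and 1 in β-catΔEx3 livers. Pdss1, which builds the isoprenoid tail, rose by 2.12 ± 0.20 (adjusted p = 4.69e-05) and 2.20 ± 0.22 (adjusted p = 8.92e-05), while the atypical kinase Coq8a was called lower at -0.90 ± 0.21 and -1.30 ± 0.22. With slide as a block Pdss1 and Coq8a were still called in both comparisons, and Timm17a was not.

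Of the carriers of adenine nucleotides, phosphate and protons, 3 of 5 tested were higher in each comparison, where 25.3% and 21.6% of all items were. Slc25a4, the adenine nucleotide translocator typical of heart and muscle, had a level of 6.73, 7.08, 5.62 and 6.96 on the β-catΔEx3:Myc arrays, 6.09, 5.82 and 5.48 on the β-catΔEx3 arrays and 2.90, 3.04, 3.21 and 2.51 on the WT arrays. All mutant arrays were far above all WT arrays, those of slide 4 included, and the log2 fold change was 3.68 ± 0.31 (adjusted p = 2.07e-05) in β-catΔEx3:Myc livers and 2.88 ± 0.33 (adjusted p = 0.000197) in β-catΔEx3 livers. Blocked on slide it was 4.27 (adjusted p = 0.00152) and 3.14 (adjusted p = 0.00387). The blocked value in β-catΔEx3:Myc livers draws in part on replicate 4, the array with the muscle markers. Over all arrays left out in turn, without the block, the log2 fold change in β-catΔEx3:Myc livers was 3.519 to 4.005. The part of muscle RNA in the values of Slc25a4 was not tested. Cycs, cytochrome c itself, rose by 0.88 ± 0.17 (adjusted p = 0.00213) and 1.00 ± 0.18 (adjusted p = 0.00207), and it was not called with the block (adjusted p = 0.211 and 0.162).

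Assembly factors of the chain were called in part, and their counts are to be read against the 25.3% of all items called higher in β-catΔEx3:Myc livers and the 21.6% in β-catΔEx3 livers. Of 20 tested complex IV assembly genes 8 were higher and 1 lower in β-catΔEx3:Myc livers, and 6 and 0 in β-catΔEx3 livers, with Coa5 at 1.41 ± 0.20 and 1.71 ± 0.21. Further complex I assembly genes had 4 and 3 of 10 higher in the same order, led by Nubpl in β-catΔEx3:Myc livers (0.79 ± 0.12) and Foxred1 in β-catΔEx3 livers (0.77 ± 0.23), whose call was lost without β-catΔEx3 replicates 1 or 2 or WT replicates 2 or 4 (adjusted p up to 0.102, log2 fold change 0.61 to 1.06 over all arrays left out in turn). Complex III assembly had 2 and 2 of 6 higher, with Ttc19 at 1.00 ± 0.15 and 1.15 ± 0.16, and complex II assembly had 1 and 1 of 4, its Sdhaf1. Of 13 genes of mitochondrial DNA upkeep and transcription, 2 were higher in each comparison and 0 lower, and Tfam, which packages mitochondrial DNA, was not called (0.10 ± 0.15, adjusted p = 0.623, and 0.12 ± 0.16, adjusted p = 0.601). Of 10 genes of other entry routes for electrons, 3 were higher and 2 lower in β-catΔEx3:Myc livers and 3 and 1 in β-catΔEx3 livers. Prodh, which oxidises proline, rose by 1.93 ± 0.23 and 2.10 ± 0.25, and Gpd2, of the glycerol phosphate shuttle, had -1.67 ± 0.21 and -1.47 ± 0.23 and so was lower. The shares called higher for complex II assembly and mitochondrial DNA upkeep lay near or below those of all items. The entry routes, with 3 of 10 in each comparison, lay somewhat above them. In β-catΔEx3 livers the complex IV assembly genes (6 of 20) and the further complex I assembly genes (3 of 10) had the same share as the entry routes. Complex III assembly (2 of 6) was close to it. Blocked on slide the medians in β-catΔEx3:Myc and β-catΔEx3 livers were 0.12 and 0.02 for the further complex I assembly genes, against 0.38 and 0.42 without the block. They were -0.29 and -0.34 for complex II assembly, 0.05 and 0.05 for complex III assembly (0.47 and 0.47 without the block), 0.17 and 0.08 for complex IV assembly (0.38 and 0.32), 0.15 and 0.20 for complex V assembly (0.49 and 0.60) and -0.07 and -0.01 for mitochondrial DNA upkeep. In that fit Ttc19 was still called in both comparisons, Gpd2 in β-catΔEx3:Myc livers and Prodh in β-catΔEx3 livers, and Coa5, Nubpl, Foxred1 and Sdhaf1 in neither (adjusted p from 0.063 to 0.185).

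Of 11 tested transcription regulators of mitochondrial genes, 4 were called higher and 1 lower in β-catΔEx3:Myc livers (Ppargc1a, Ppargc1b, Esrra and Myc itself, against Ppara), and 1 and 1 in β-catΔEx3 livers (Esrra and Ppara). Of all items 25.3% were called higher and 17.1% lower in β-catΔEx3:Myc livers, and 21.6% and 15.5% in β-catΔEx3 livers. The shares of the regulators in β-catΔEx3 livers lay below these. Esrra, the estrogen-related receptor α, rose in both, by 1.49 ± 0.19 (adjusted p = 0.000225) and 1.48 ± 0.20 (adjusted p = 0.00051). Ppargc1a, the coactivator PGC-1α, had a level of 2.68, 4.12, 3.20 and 2.71 on the β-catΔEx3:Myc arrays, 3.08, 1.39 and 1.57 on the β-catΔEx3 arrays and 0.45, 1.44, 0.86 and 0.43 on the WT arrays. It was called higher in β-catΔEx3:Myc livers (2.38 ± 0.43, adjusted p = 0.00165), and in β-catΔEx3 livers it was not (1.22 ± 0.47, adjusted p = 0.0643), and the test between the mutant groups made no call. Nrf1 was not called, at -0.09 ± 0.16 (adjusted p = 0.684) and -0.17 ± 0.18 (adjusted p = 0.487), and Ppara, a regulator of fatty acid oxidation, was lower at -0.97 ± 0.14 (adjusted p = 0.000419) and -0.42 ± 0.15 (adjusted p = 0.0468), the call in β-catΔEx3 livers being lost without any of 10 arrays in turn. Myc, which the model targets, had a level of 4.43, 2.91, 2.31 and 4.74 on the β-catΔEx3:Myc arrays, 2.21, 1.14 and 1.84 on the β-catΔEx3 arrays and 2.05, -0.36, -0.01 and -0.76 on the WT arrays, with 3.37 ± 0.68 (adjusted p = 0.00277) in β-catΔEx3:Myc livers and 1.5 ± 0.73 (adjusted p = 0.132) in β-catΔEx3 livers, and its probe could not be tied to the Myc that the model expresses. Without WT replicate 1, the highest WT array, the log2 fold change of Myc was 2.10 and called in β-catΔEx3 livers (adjusted p = 0.0261), and 3.97 in β-catΔEx3:Myc livers. The call of Myc in β-catΔEx3:Myc livers was kept with slide as a block (adjusted p = 0.0361), while Esrra (adjusted p = 0.085 and 0.0958), Ppargc1a (0.132 in β-catΔEx3:Myc livers) and Ppara (0.052 and 0.296) were not called. Ctnnb1 was not called (-0.17 ± 0.14, adjusted p = 0.378, and -0.17 ± 0.15, adjusted p = 0.416), and its probe could not be placed relative to exon 3.

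Other gene groups and the markers of several cell types differed from WT as well. The genes of the mitochondrial ribosome had medians of 0.46 in β-catΔEx3:Myc livers and 0.44 in β-catΔEx3 livers, with 42 and 37 of 74 called higher, and those of the cytosolic ribosome had 0.73 and 0.56, with 65 and 48 of 73 called higher, where 25.3% and 21.6% of all items were. Blocking on slide left 2 and 1 genes of the mitochondrial ribosome called higher (medians 0.28 and 0.27) and 1 and 1 of the cytosolic ribosome (0.70 and 0.50). The marker counts that follow are to be read against these shares and against the items called lower. Of all items 17.1% were lower in β-catΔEx3:Myc livers and 15.5% in β-catΔEx3 livers. Of the hepatocyte markers 5 of 12 were lower and 1 higher in β-catΔEx3:Myc livers and 4 and 0 in β-catΔEx3 livers, and their summed signal was 7320 to 10000 on β-catΔEx3:Myc arrays, 8560 to 9750 on β-catΔEx3 arrays and 11100 to 14400 on WT arrays. Of 9 tested macrophage markers 9 and 8 were lower, of 10 endothelial markers 8 and 7, and of 10 stellate cell markers 7 and 3, in β-catΔEx3:Myc and β-catΔEx3 livers against WT. The summed macrophage signal was 17.4 to 63.7 on β-catΔEx3:Myc arrays, 19.9 to 58 on β-catΔEx3 arrays and 228 to 353 on WT arrays. Of 7 tested erythroid markers 1 was higher and 1 lower in β-catΔEx3:Myc livers and 0 and 4 in β-catΔEx3 livers, with a summed signal of 35 to 905 on β-catΔEx3:Myc arrays, 42.1 to 158 on β-catΔEx3 arrays and 529 to 1160 on WT arrays. Of 5 tested adipocyte markers 1 was higher and 2 lower in each comparison, with a summed signal of 9.07 to 46.7 on β-catΔEx3:Myc arrays, 15 to 102 on β-catΔEx3 arrays and 207 to 457 on WT arrays. Of 8 tested neutrophil markers 2 and 1 were higher, near or below the shares of all items. Their summed signal was 8.68 to 83.1 on β-catΔEx3:Myc arrays, 5.58 to 13.7 on β-catΔEx3 arrays and 7.71 to 12.2 on WT arrays. Between the mutant groups their median log2 difference was 3.43, and 0 of the 8 were called. In whole liver a different share of hepatocytes and a different amount of RNA per hepatocyte cannot be told apart, and the part of these markers in the values of the respiratory chain genes was not tested.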

How the data were processed

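Total RNA of 11 livers was hybridised to 1-colour Agilent arrays. Per the file headers, the authors' scans were read with Agilent Feature Extraction 10.7.1.1, and the deposited processed signal is a background-subtracted intensity per spot. The authors' deposited value matrix holds log2 values, each column with a median of 4.51 and in the same rank order as the scanner signal of its array. How that matrix was centred is not given in the sources used here.

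From the deposited intensities, outlier spots (137 to 209 per array) were left out, log2 was taken, and the 75th percentile of the array over 59305 spots that are not controls was subtracted. Spots of a probe were averaged, probes well above background on at least 3 of 11 arrays were kept, and the brightest probe stood for a gene. The 22283 items left, 13963 with a RefSeq symbol (GRCm38.p6 names), were fitted on the 3 group means with limma 3.58.1 in R 4.3.3 (8 residual degrees of freedom), with empirical Bayes variances and 2-sided tests. P-values were adjusted by Benjamini-Hochberg over all items with a threshold of 0.05. The number of arrays limits the precision, and fold changes carry their standard error. No fold is given for Cox8b, whose probe was not well above background on any WT array. The script was tested on simulated data with known changes. Alternatives changed the scaling, background correction, filter, choice of probe and arrays in the fit, took slide as a block, used the authors' matrix, or left out 1 array at a time.

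Values per array are given for the genes of complex II, Cyc1, the isoform pairs, in each complex the 2 genes with the largest called rise and fall, and the genes that differed most between the mutant groups. Ndufs1, Ndufa10, Ndufb8, Ndufs8, Uqcrfs1, Atp5b and Atp5j were named for their role after their values were seen. The gene rule and all lists were chosen with earlier results of these data known. Results on some genes are not reported here.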

Additional observations from a re-analysis of the deposited data

Results flagged for a closer look

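Dixon's test was run on the 68 sets of 4 arrays behind the named genes, β-catΔEx3:Myc and WT apart, and 7 held an array far from the other 3 of its group. Chance flags about 1 in 20 independent sets. These sets share the same arrays and some genes were named for their values, so the count cannot be judged by that share. β-catΔEx3:Myc replicate 4 accounted for 5 of them. It was high for the muscle form Cox6a2, at 3.90 against -1.59 to -1.29 on the other β-catΔEx3:Myc arrays (gap over range 0.945). It was also high for the muscle form Cox8b, at 2.63 against -6.74 to -5.27 on arrays not well above background (0.843). It was low for the complex I core subunit Ndufs7, at 7.45 against 8.02 to 8.09 (0.891), for the complex V subunit Atp5d, at 6.70 against 7.16 to 7.24 (0.862), and for the complex IV protein Ndufa4, at 7.05 against 7.44 to 7.52 (0.835). The same array carries the muscle markers and lies on slide 4, and the part of either in these values was not tested.

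The other flags concerned single values. Cox6a1 stood at 10.38 on β-catΔEx3:Myc replicate 2 against 10.18 to 10.2 on the other β-catΔEx3:Myc arrays (0.879). Cox7a2 stood at 6.65 on WT replicate 1 against 6.33 to 6.34 on the other WT arrays (0.949).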

How the results depend on the processing

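The counts and complex medians of both comparisons with WT kept their direction under every alternative run. The size of the rise depended on the scaling and on whether slide was in the fit. Under quantile normalization 42 genes were called higher and 3 lower in β-catΔEx3:Myc livers, with medians of 0.39, 0.42, 0.29, 0.33 and 0.21 for complexes I to V, and 33 were called higher in β-catΔEx3 livers, with medians of 0.34, 0.34, 0.23, 0.33 and 0.18. With the authors' deposited matrix 53 were higher and 3 lower in β-catΔEx3:Myc livers, with medians of 0.40, 0.45, 0.38, 0.38 and 0.31, and the β-catΔEx3 medians were 0.40, 0.39, 0.31, 0.43 and 0.31. With the 75th percentile taken over the probes that every array detected, 2 genes were lower in β-catΔEx3:Myc livers and the medians of complexes I, III, IV and V were 0.51, 0.55, 0.505 and 0.46, against 0.46, 0.36, 0.44 and 0.38 in β-catΔEx3 livers, where 47 genes were higher. Under each of these 3 scalings 3 genes were lower in β-catΔEx3 livers. The median of the genes minus that of all items was 0.51 in β-catΔEx3:Myc livers and 0.50 in β-catΔEx3 livers under the scaling used, 0.26 and 0.24 under quantile normalization, and 0.31 and 0.31 with the matrix. The cause of these shifts was not tested.

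With slide as a block 2 genes were higher and 0 lower in β-catΔEx3:Myc livers, with medians of 0.44, 0.33, 0.46, 0.50 and 0.45 for complexes I to V, and 1 was higher and 0 lower in β-catΔEx3 livers, with medians of 0.34, 0.22, 0.47 and 0.35 for complexes I, II, IV and V. That fit sets each mutant group against WT through 1 WT array. The number of genes called lower in β-catΔEx3 livers was 1 with normexp background correction, 1 without the filter on dim probes and 1 with only the 2 groups compared. Leaving out 1 array at a time gave 68 to 74 genes higher and 1 to 2 lower in β-catΔEx3:Myc livers, and 43 to 62 higher and 1 to 2 lower in β-catΔEx3 livers. Between the mutant groups 0 genes were called under every alternative run. No paired analysis was possible because the labels give the arrays no replicate numbers, and the numbers used here only name them. Cox8b was not well above background on any WT array, so its fold against WT is not given.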
